A study of Mus musculus with 15 samples.

Results

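The imprinted growth-control genes are a set of 10 named mouse genes that are expressed mainly from the maternal or the paternal chromosome and that set the pace of cell and organ growth: Peg3, Peg10, Mest, Grb10, Igf2r, Plagl1, Sgce, Cdkn1c, Phlda2 and Impact. The set was chosen by the CPM of Peg3 (read counts scaled to library size) in the second of the study's RNA-Seq datasets, where it was lower on PCBP1 knockdown, so the values of that dataset are a description of the members and were not tested. Members were found by an exact match of the gene symbol. Of the 10 genes, 6 had values in the 15023 genes of dataset 2 (Peg3, Igf2r, Impact, Phlda2, Mest and Grb10) and 5 in the 13893 genes of dataset 1 (the same genes without Grb10), against 15701 genes in either dataset. Peg10, Sgce, Plagl1 and Cdkn1c were not analysed here.

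All 15 libraries came from NMuMG cells, a mouse mammary gland epithelial line. Dataset 2 held 2 libraries of NMuMG cells and 2 of NMuMG shPCBP1 cells, which carry a short hairpin RNA against the RNA-binding protein PCBP1. The labels give no treatment for the NMuMG libraries, while the study's text describes its controls as cells with a scrambled hairpin, so which of these controls the NMuMG libraries are was not settled here. Dataset 1 held 11 libraries of cells that all carried the PCBP1 hairpin. Its shPCBP1 group was the unaltered line and CT clones 1 to 3, which had received Cas9 without gene-specific guides. FAM3C KO clones 1 to 3 and LIFR KO clones 1 to 3 lacked a fragment of the gene for the secreted factor FAM3C or for LIFR, a cytokine receptor, and 1 further line was a double KO. The study's methods describe serial dilution of electroporated cells to isolate KO colonies, and state no such step for the line without Cas9. Each line gave 1 library. The counts behind the 2 tables were scaled separately, and levels are compared only within a dataset. The tables hold total RNA per gene and not per allele, so they do not show which parental copy was read.

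Genomic imprinting marks a small group of genes with parent-specific DNA methylation or chromatin in the germ line, after which a single parental copy is transcribed. Paternally expressed members, such as Peg3 and Mest, have been linked to growth promotion and maternal behaviour, and maternally expressed members, such as Igf2r, Grb10, Cdkn1c and Phlda2, to growth restraint. Igf2r clears the growth factor IGF2, Grb10 binds and dampens insulin and IGF receptors, Cdkn1c blocks cyclin-dependent kinases, and Phlda2 limits placental growth.

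3 libraries stood apart and enter several results below. In LIFR KO clones 2 and 3 and in the double KO, a gene's difference from the shPCBP1 mean went with its exon GC content (Spearman -0.76, -0.74 and -0.70 over 12603 genes, against -0.29 to 0.24 in the other lines of dataset 1), and mitochondrial mRNA made up 7.16 to 8.58% of the listed CPM, against 3.14 to 4.06%. Depth recovered from the smallest steps of the values was 16031859 to 46901675 reads per library in dataset 1 and 53032111 to 56496537 in dataset 2. Pcbp1 was 287 and 312 CPM in NMuMG and 14.1 and 14.2 CPM in shPCBP1 of dataset 2. Fam3c was 26.4 to 42.9 CPM in the FAM3C KO clones and 47 to 59.4 CPM in shPCBP1, whereas Lifr was 34.9, 29.3 and 14.6 CPM in LIFR KO clones 1, 2 and 3 and 25.8 to 40.2 CPM in shPCBP1. Reads outside an excised fragment do not check a deletion, so these levels leave the LIFR KO labels unchecked. Of the epithelial markers, Cdh1, Krt8, Krt18 and Krt19 were detected in every library and the summed markers ranged from 1226 to 3182 CPM, while the listed endothelial and adipocyte markers summed to at most 2.00 and 0.751 CPM. The listed haematopoietic markers summed to 4.29 to 10.8 CPM in dataset 1, all of it Cd68, and to 1.13 to 1.68 CPM in dataset 2.

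The sequence most tied to these results is the stretch of chromosome 7 from which Peg3 is transcribed, because the gene on its other side, Usp29, has overlapping start-site sequence and is used below. Peg3 encodes a zinc finger transcription factor and Usp29 a ubiquitin-specific protease, and both are known to be read from the paternal copy in opposite directions. In RefSeq (GRCm38.p6) the start of Usp29 lies 164 bases from that of Peg3, and the windows from 250 bases before to 50 bases after each start share 263 bases. The Peg3 window, chr7:6730370-6730669 on the minus strand, is shown with CG dinucleotides, the sites of DNA methylation, in capitals, beside the window of Igf2r, chr17:12769657-12769956 on the minus strand, the member that differed most in the opposite direction in dataset 2.
Peg3: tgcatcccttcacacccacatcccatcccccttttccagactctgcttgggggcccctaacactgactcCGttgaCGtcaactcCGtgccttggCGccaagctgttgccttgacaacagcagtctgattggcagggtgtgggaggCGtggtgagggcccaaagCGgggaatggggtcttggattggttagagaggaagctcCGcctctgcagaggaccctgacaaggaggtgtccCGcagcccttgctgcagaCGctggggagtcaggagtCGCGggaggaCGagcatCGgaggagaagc
Igf2r: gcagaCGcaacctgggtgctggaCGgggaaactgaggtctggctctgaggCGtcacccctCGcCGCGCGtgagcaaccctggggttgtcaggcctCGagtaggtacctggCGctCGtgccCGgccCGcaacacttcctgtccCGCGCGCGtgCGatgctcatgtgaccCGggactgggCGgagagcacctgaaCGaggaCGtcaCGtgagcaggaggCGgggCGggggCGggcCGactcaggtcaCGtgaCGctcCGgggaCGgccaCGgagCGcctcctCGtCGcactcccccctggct
The Peg3 window held 13 CG dinucleotides and that of Igf2r 34. 62.1% and 92.3% of the 32851 mouse promoters of the same length held fewer. On both strands, neither the STAT site TTCNNNGAA, held by 8.30% of all promoters, nor the YY1 core GCCATNTT, held by 6.05%, was found in the windows of Peg3, Usp29, Igf2r or Phlda2. Most promoters lack each motif, and sequence outside the windows, such as introns, was not searched.

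In dataset 2, the members that differed most between the groups went in opposite directions. Peg3, at chr7:6703892-6730431 on the minus strand, was 692 and 682 CPM in NMuMG cells and 192 and 194 CPM in shPCBP1 cells, on 39111, 36180, 10709 and 10506 reads. The replicates lay within 1.01-fold of each other and the groups did not overlap. The level was 3.56-fold lower with the knockdown, a log2 fold change of -1.83, and this is the difference the members were chosen around. Among 11384 tested genes it was the 279th from the lowest. Even so, Peg3 remained among the more abundant mRNAs, above 98.3% of the listed genes in both shPCBP1 libraries.

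Igf2r, at chr17:12682406-12769664 on the minus strand, encodes the receptor that takes IGF2 to lysosomes. It was 2.64 and 2.83 CPM in NMuMG and 29.1 and 28.4 CPM in shPCBP1, 10.5-fold higher with the knockdown (log2 fold change 3.35). Impact, at chr18:12955852-12992950 on the plus strand, encodes an inhibitor of the amino acid sensor kinase GCN2. It was 6.28 and 6.68 CPM in NMuMG and 41.9 CPM in both shPCBP1 libraries, 6.46-fold higher (log2 fold change 2.67). For both genes the knockdown libraries lay far above the control libraries, and they ranked 265th and 348th from the highest of 11384.

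Phlda2, at chr7:143501545-143503150 on the minus strand, was 2.48 and 1.98 CPM in NMuMG and 1.52 and 1.24 CPM in shPCBP1, on 67 to 140 reads per library. The groups did not overlap, but the gap between them, from 1.98 to 1.52 CPM, was smaller than the gap between the NMuMG replicates, from 2.48 to 1.98 CPM. Mest, an alpha/beta-hydrolase gene at chr6:30723547-30748465 on the plus strand, was 0.176 and 0.189 CPM in NMuMG and 0.154 and 0.291 CPM in shPCBP1, on 9 to 16 reads, and the groups overlapped. Grb10, at chr11:11930508-12038683 on the minus strand, was listed at 0.0001 CPM, no read, and at 0.0944 CPM in NMuMG, and at 0.126 and 0.129 CPM in shPCBP1. These values rest on 0 to 7 reads, and the count of 0 allows up to 0.0531 CPM, a limit that covers counting error only. Mest and Grb10 lay under the mean of 0.5 CPM that a gene needed to be tested.

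Of the 6 members in dataset 2, 4 passed the filter on low values and all 4 differed by at least 1.5-fold, as did 31.1% of all tested genes, with groups that did not overlap, as for 89.0% of them. Since this contrast chose the members, nothing is read from these counts. Markers of the mesenchymal state moved in the same contrast: the sum of the 8 listed markers with values was 536 and 557 CPM in NMuMG and 1311 and 1345 CPM in shPCBP1. All 5 that were tested (Fn1, Zeb2, Cdh2, Vim and Zeb1) were higher, by 0.44 to 3.45 on the log2 scale. At the limma threshold, 42.1% of all tested genes were called higher. Pdgfra, a listed marker that was under the filter and not tested, went the other way, from 0.531 and 0.547 CPM to 0.0539 and 0.0001 CPM. The part of these markers in the members' levels was not tested. In bulk RNA, a smaller share of expressing cells and less RNA per cell cannot be told apart.

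**Figure D1:**
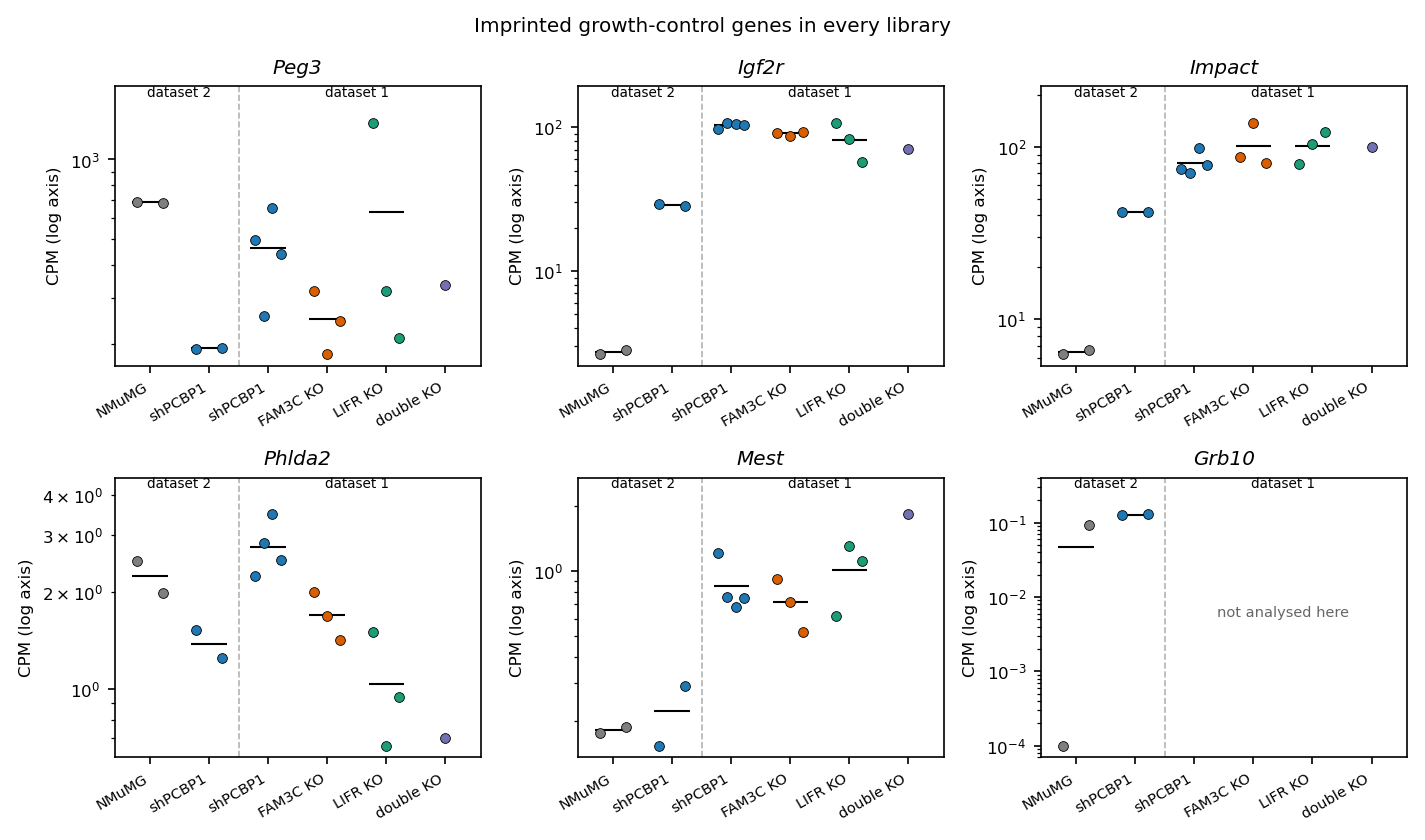
CPM (log axes) of the 6 members with values, 1 point per library, with the group mean as a bar for groups of more than 1 library; the left part of each panel is dataset 2 and the right part dataset 1, scaled separately. In dataset 2, Peg3 is lower and Igf2r and Impact are higher in shPCBP1, and in dataset 1 LIFR KO clone 1 stands above all lines for Peg3, at 1375 CPM.

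Per kilobase of exon, the order of the members differed between the groups. In NMuMG, Peg3 led with a mean level of 51.6 CPM per kb, followed by Phlda2 (1.99), Impact (1.26), Igf2r (0.294) and Mest (0.0463). In shPCBP1 of dataset 2, the mean levels were 14.5 CPM per kb for Peg3, 8.16 for Impact, 3.09 for Igf2r, 1.23 for Phlda2 and 0.0563 for Mest. Impact and Igf2r thus stood above Phlda2 with the knockdown and below it without. The shPCBP1 lines of dataset 1 had the same order, with mean levels of 34.7 CPM per kb for Peg3, 15.6 for Impact, 11.1 for Igf2r, 2.46 for Phlda2 and 0.215 for Mest.

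Peg3 varied widely among the shPCBP1 lines of dataset 1. CT clones 1, 2 and 3 held 497, 255 and 657 CPM and the line without Cas9 held 440.2 CPM (462 ± 166, SD, n = 4), a 2.57-fold range. The SD of log2 CPM over these 4 lines was 0.571, above that of 94.9% of tested genes, whose median SD was 0.131. By contrast, Igf2r ranged from 96.7 to 107 CPM over the same lines, with an SD of 0.066 that exceeded 14.4% of genes. Impact (70.1 to 98.0 CPM), Phlda2 (2.24 to 3.47 CPM) and Mest (0.681 to 1.21 CPM) had SDs above those of 74.6, 81.5 and 87.1% of genes, and the last 2 rest on 39 to 104 and on 11 to 56 reads, so that counting error is part of their spread.

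Whether FAM3C or LIFR loss moves Peg3 was addressed by comparing the KO clones with the shPCBP1 lines. Peg3 was 318, 183 and 245 CPM in FAM3C KO clones 1 to 3 (249 ± 67.3, SD, n = 3), and 1375, 319 and 211 CPM in LIFR KO clones 1 to 3 (635 ± 643, SD, n = 3). All 3 FAM3C KO clones lay below 3 of the 4 shPCBP1 lines, while FAM3C KO clone 1 lay above CT clone 2, and the double KO held 336 CPM. The log2 fold change was -0.85 for FAM3C KO (SE 0.552, 95% interval -2.07 to 0.37, limma adjusted p = 0.699) and 0.05 for LIFR KO (SE 0.552, -1.18 to 1.27, adjusted p = 0.955). Neither passed the adjusted p of 0.07 used as the threshold, and intervals of this width hold changes of more than 2-fold. Both SEs come from 1 fit of the 3 groups, so that of FAM3C KO also carries the spread of the LIFR KO clones. With FAM3C KO and shPCBP1 fitted alone, the limma adjusted p of Peg3 was 0.142, in a fit that called 8.29% of all genes.

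LIFR KO clone 1 decided the value of its group. Without it, Peg3 differed by -0.76 on the log2 scale between LIFR KO and shPCBP1 (limma adjusted p = 0.0986, in a fit that called 57.4% of all genes). With clone 1 alone standing for LIFR KO, Peg3 differed by 1.65, in a fit where the lone clone was assumed to vary like the other groups. Between the knockouts, Peg3 was lower in FAM3C KO by 0.90 (95% interval -2.20 to 0.41, adjusted p = 0.310), with -0.10 when LIFR KO clone 1 was left out. With LIFR KO clones 2 and 3 left out instead, the difference was -2.50 (limma adjusted p = 0.0187, in a range of 0.0187 to 0.848 over 21 alternatives). LIFR KO clone 1 is not among the libraries with the GC shift.

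**Figure D2:**
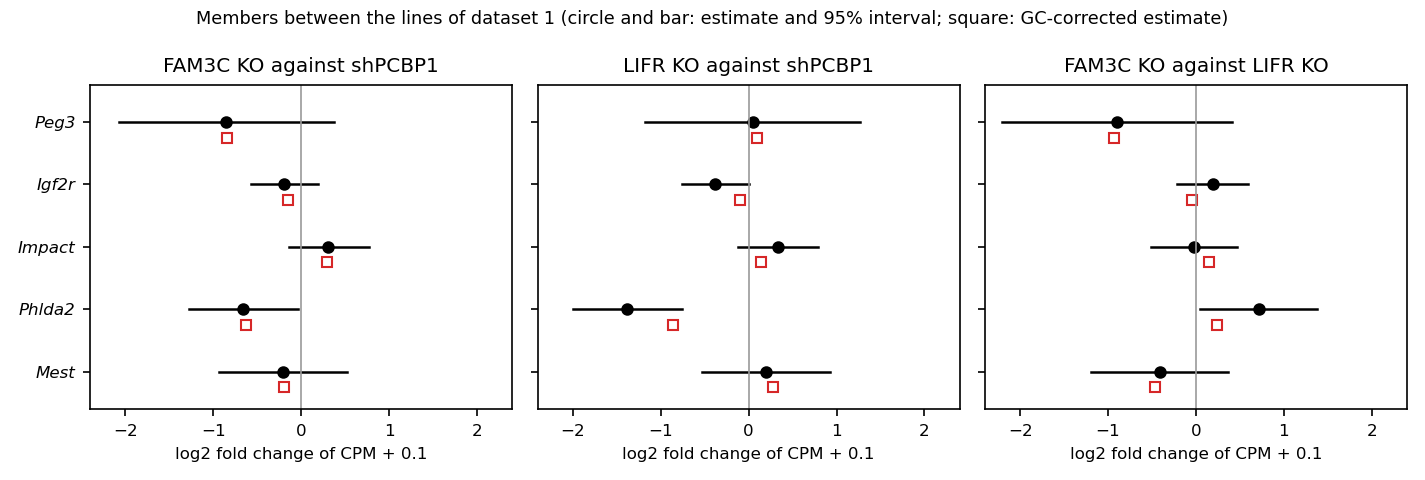
log2 fold changes of CPM + 0.1 for the 5 members of dataset 1 in the 3 comparisons, first group minus second; circles and bars are limma estimates with 95% intervals, and open squares are estimates after correction for GC content. Intervals that exclude 0 are those of Phlda2, and its GC-corrected estimate in LIFR KO is smaller, -0.86 against -1.38.

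The gene that followed Peg3 most closely over the 11 lines was its head-to-head neighbour. Ranked by the Pearson correlation of log2(CPM + 0.1) with Peg3, Usp29 was first of 12620 genes (r = 0.976, Spearman rho 0.927), and r was 0.943 without LIFR KO clone 1 and 0.979 without the 3 libraries with the GC shift. These are descriptions over lines that share libraries, depth and origin. Next came Pax7 (r = 0.899), Alpl (0.882), Syt13 (0.862) and Evc2 (0.846), which lie on other chromosomes and averaged 1.27 to 5.42 CPM. The other members ranked far lower, at 1176 for Igf2r, 4958 for Phlda2, 8989 for Mest and 11277 for Impact.

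CT clones 1, 2 and 3 held 16.7, 8.16 and 20.6 CPM of Usp29, and the line without Cas9 14.6 CPM. Usp29 was 12.1, 9.12 and 9.99 CPM in the FAM3C KO clones, 37.8, 13.8 and 8.83 CPM in the LIFR KO clones and 13.1 CPM in the double KO. Its highest line was LIFR KO clone 1, as for Peg3, and CT clone 2 was the lowest of the shPCBP1 lines for both genes. In dataset 2, Usp29 was 16.0 and 15.3 CPM in NMuMG and 4.46 and 4.62 CPM in shPCBP1, so that the ratio of Peg3 to Usp29 CPM was 43.2 and 44.7 without and 43.0 and 42.0 with the knockdown. In dataset 1 this ratio ranged from 29.8 to 31.9 over the shPCBP1 lines, from 20.1 to 26.2 over the FAM3C KO clones, and was 36.4, 23.1 and 23.9 in the LIFR KO clones. In the GENCODE M21 annotation the gene bodies lie 147 bases apart and share no exon.

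**Figure D3:**
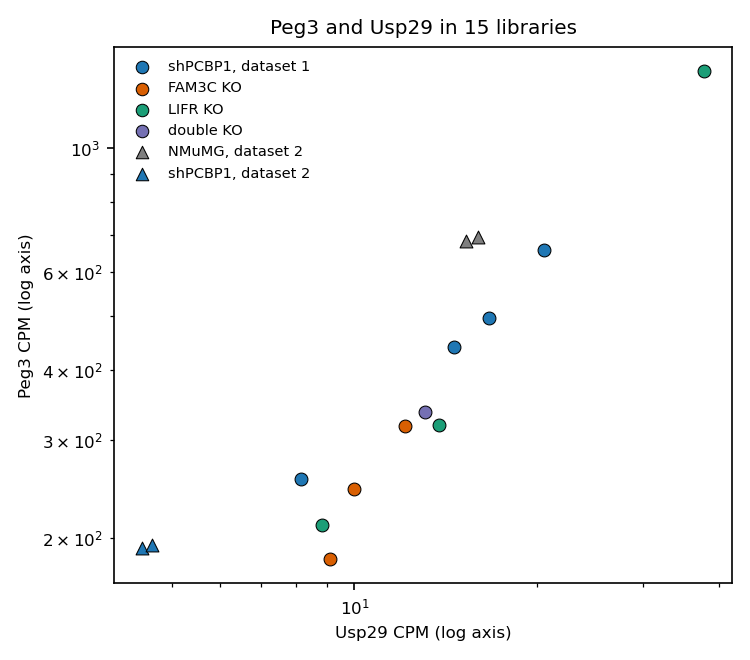
Peg3 against Usp29 CPM (both axes log) in the 15 libraries, circles for dataset 1 and triangles for dataset 2, colours for groups. Within each dataset the points rise along a line, from 8.16 to 37.8 CPM of Usp29 in dataset 1, with LIFR KO clone 1 at the upper end.

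Other genes around Peg3 are mostly zinc finger genes, and in dataset 2 all 8 that were tested within 500 kb had negative log2 fold changes, from -2.51 to -0.18 with a median of -1.05, against a median of 0.02 over all genes. Zfp667, 396009 bases away, differed by -2.51, Usp29 by -1.76, Zfp773 by -1.29 and Zfp28 by -1.23. This contrast chose Peg3, so no test is given for them. Zim1, a maternally expressed zinc finger gene 7442 bases from Peg3, had the opposite direction: 0.0709 and 0.0944 CPM in NMuMG and 0.376 and 0.481 CPM in shPCBP1, under the filter. In dataset 1, none of the 10 tested neighbours passed the limma threshold in FAM3C KO or LIFR KO (1 and 0 had an unadjusted p under 0.05, against 10.2 and 35.7% of all genes). Zim1 had the largest difference, -1.90 in FAM3C KO (SE 0.552, limma adjusted p = 0.235). It was 0.399 and 0.346 CPM in FAM3C KO clones 1 and 3 and listed at 0.0400 CPM, no read, in clone 2, against 0.618 to 2.00 CPM in shPCBP1.

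**Figure D4:**
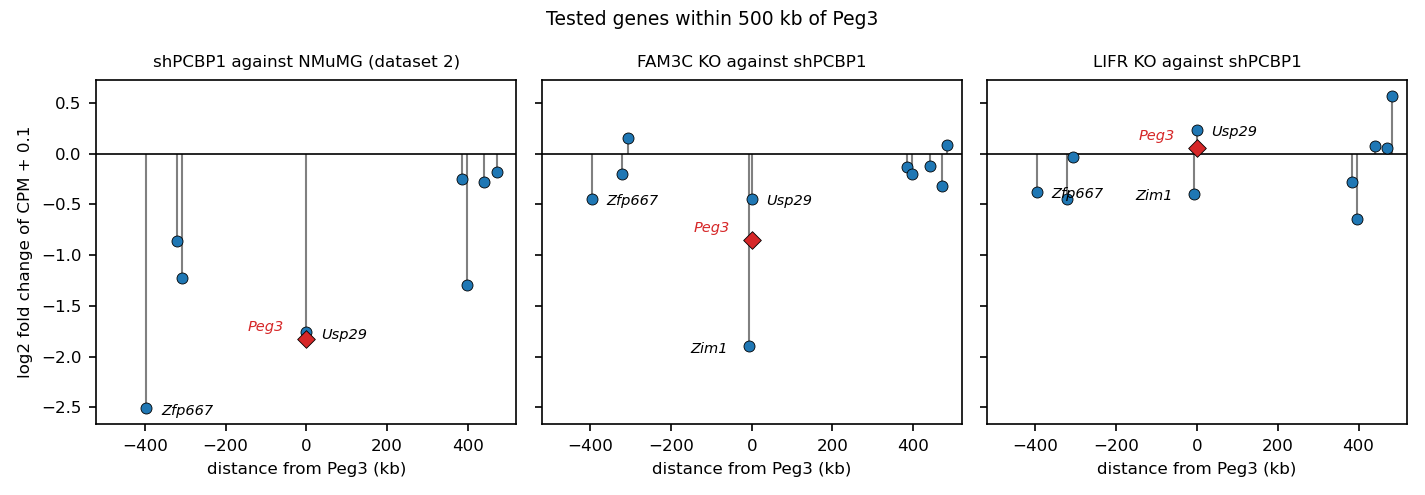
log2 fold change of CPM + 0.1 for the tested genes within 500 kb of Peg3, by distance from the gene body in kb, with Peg3 as a red diamond. All 8 neighbours lie below 0 in dataset 2, whereas in dataset 1 those of the FAM3C KO and LIFR KO comparisons lie on both sides of 0.

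In dataset 2, genes around Igf2r, Mest and Phlda2 lay on both sides of 0. The 8 tested neighbours of Igf2r ranged from -0.31 to 2.08 with a median of 0.07, those of Mest (6 genes) from -0.55 to 0.19, and those of Phlda2 (12 genes) from -0.68 to 1.04. For Igf2r itself the log2 fold change of 3.35 was above that of every tested gene within 500 kb. The next highest was 2.08 for Agpat4, 462761 bases away. The gene next to Impact that was tested, Osbpl1a, differed by 0.10.

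Phlda2 was the member that passed the threshold in dataset 1, in LIFR KO. CT clones 1, 2 and 3 held 2.24, 2.83 and 3.47 CPM and the line without Cas9 2.50 CPM (2.76 ± 0.532, SD, n = 4). The LIFR KO clones held 1.5, 0.665 and 0.943 CPM (1.04 ± 0.426, n = 3), and the FAM3C KO clones 1.99, 1.68 and 1.42 CPM (1.70 ± 0.286, n = 3). With the double KO at 0.703 CPM, all 7 knockout lines lay below all 4 shPCBP1 lines, as for 2.67% of tested genes. For LIFR KO alone, 13.2% of tested genes had groups that did not overlap in this direction. These levels rest on 14 to 44 reads in the knockout lines and 39 to 104 in the shPCBP1 lines.

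The log2 fold change of Phlda2 in LIFR KO was -1.38 (SE 0.279, 95% interval -2.0 to -0.76, limma adjusted p = 0.0388), which makes 1 member called of 5 tested, against 6.47% of all genes and 5.55% called lower. In that comparison the median of all genes was -0.16, and after rescaling by median ratios the change was -1.23 (adjusted p = 0.0483). The two-sided exact permutation p was 0.0571, the smallest that 4 lines against 3 can give. In FAM3C KO the change was -0.66 (SE 0.279, interval -1.28 to -0.04, limma adjusted p = 0.443), not past the threshold, with the same exact p of 0.0571. With FAM3C KO and shPCBP1 fitted alone, its limma adjusted p was 0.0979, also not past it, while 8.29% of all genes were called. The knockouts differed from each other by 0.72 (FAM3C KO minus LIFR KO, interval 0.05 to 1.38, adjusted p = 0.149), also not past it.

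The exons of Phlda2 are GC-rich, at 56.5%, and the call did not hold when GC content was corrected for. The LIFR KO change was then -0.86 (limma adjusted p = 0.101), and -0.82 with LIFR KO clone 1 alone (adjusted p = 0.292), in a range of 0.000563 to 0.292 over 20 alternatives. After the correction, Phlda2 was 2.33 to 3.45 CPM in the shPCBP1 lines, 1.58, 1.21 and 1.60 CPM in LIFR KO clones 1 to 3, 1.45 to 1.94 CPM in FAM3C KO and 1.18 CPM in the double KO, so all 7 knockout lines still lay below, as for 1.19% of genes after the correction. The call was kept when FAM3C KO clone 2, LIFR KO clone 1 or LIFR KO clone 3 was left out (adjusted p = 0.0543, 0.000563 and 0.0466). It was lost when any other single line was left out: the line without Cas9 (0.102), CT clones 1, 2 and 3 (0.0758, 0.126 and 0.110), FAM3C KO clones 1 and 3 (0.0703 and 0.0717) and LIFR KO clone 2 (0.135), with log2 fold changes of -1.47 to -1.13 in these fits. The number of all genes called moved as well. It was 587, 7234 and 722 in the fits that kept the call and 5 to 159 in those that lost it. With every line in the fit it was 816, and 39 after GC correction.

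Of the epithelial markers, the keratin genes Krt8, Krt18 and Krt19 had lower values in the same clones. The summed level of the epithelial markers ranged from 1226 to 2108 CPM in LIFR KO and was 1827 CPM in the double KO, against 2478 to 3182 CPM in the shPCBP1 lines and 2006 to 3037 CPM in FAM3C KO. All 5 that were tested had negative log2 fold changes in LIFR KO, with a median of -0.72. Those of Cdh1 (-0.04) and Ocln (-0.05) were near 0, and Cdh1 was at 0.22 after GC correction. The 1 that passed the threshold was Krt18 (-0.72, limma adjusted p = 0.0663, and -0.22, adjusted p = 0.540, after GC correction). The summed mesenchymal markers were 1276 to 1933 CPM in LIFR KO and 1770.5 to 2020 CPM in shPCBP1. Of the 6 tested, 4 had positive and 2 negative changes. The part of these markers in the level of Phlda2 was not tested. Between the knockouts, Krt18 differed by 0.86 (limma adjusted p = 0.0466) and the mesenchymal marker Fn1, the fibronectin gene, by 0.91 (adjusted p = 0.0535), with 0.39 (0.255) and 0.57 (0.148) after GC correction.

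Igf2r kept to a narrow range in the shPCBP1 and FAM3C KO lines of dataset 1. CT clones 1, 2 and 3 held 96.7, 107 and 106 CPM, the line without Cas9 104 CPM, and it was 91.4, 87.6 and 92.9 CPM in the FAM3C KO clones, below every shPCBP1 line. Its change there was -0.19 (95% interval -0.57 to 0.19, limma adjusted p = 0.837, and 0.0959 with these 2 groups fitted alone, where 8.29% of all genes were called). With Phlda2 this makes 2 of 5 members with FAM3C KO clones below all shPCBP1 lines, which held for 12.5% of all tested genes, and no member passed the limma threshold (1 of 5 had an unadjusted p under 0.05, as did 10.2% of all genes), as against 0.309% of genes. In LIFR KO, Igf2r was 107, 82.6 and 57.0 CPM in clones 1 to 3, and 70.4 CPM in the double KO, so the lower levels were those of the libraries with the GC shift. The change was -0.38 (interval -0.76 to 0.01, limma adjusted p = 0.144) and -0.10 after GC correction (adjusted p = 0.723). Without clone 1 it was -0.59 (limma adjusted p = 0.00371), in a fit whose LIFR KO clones all had the GC shift and that called 57.4% of all genes.

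Impact was 74.2, 70.1 and 98.0 CPM in CT clones 1, 2 and 3, 77.9 CPM in the line without Cas9, 86.9, 137 and 80.5 CPM in FAM3C KO, and 79.9, 104 and 121 CPM in LIFR KO. The groups overlapped, with changes of 0.31 (95% interval -0.14 to 0.77, limma adjusted p = 0.705) and 0.34 (interval -0.12 to 0.79, adjusted p = 0.251). Mest was 1.21, 0.760, 0.681 and 0.748 CPM in the same 4 lines, 0.918, 0.720 and 0.520 CPM in FAM3C KO, and 0.614, 1.31 and 1.11 CPM in LIFR KO. Its changes were -0.21 (interval -0.94 to 0.52, adjusted p = 0.918) and 0.20 (interval -0.53 to 0.93, adjusted p = 0.672), on 10 to 56 reads per line. Between the knockouts no member passed the limma threshold (1 of 5, Phlda2, had an unadjusted p under 0.05, as did 29.3% of all genes), against 8.28% of all genes: the differences were 0.19 for Igf2r (adjusted p = 0.491), -0.02 for Impact (0.955) and -0.41 for Mest (0.432).

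The members were set beside 58 other imprinted genes. In dataset 2, 28 of the 37 with values were tested, and 10 were higher and 12 lower in shPCBP1 (limma adjusted p under 0.07, as for 80.1% of all genes), with a median of -0.10. Ndn, a paternally expressed gene of the Prader-Willi region, was 6.78 and 6.19 CPM in NMuMG and listed at 0.0001 CPM, no read, in both shPCBP1 libraries. Sfmbt2 and Slc38a4, whose imprint is known to rest on histone H3K27 methylation, had the reverse pattern: both were listed at 0.0001 CPM in both NMuMG libraries, and were 2.69 and 2.99 CPM, and 2.20 and 2.18 CPM, in shPCBP1. Ppp1r9a, which encodes neurabin, fell from 6.16 and 6.34 CPM to 0.179 and 0.0925 CPM, and Ddc, the dopa decarboxylase gene next to Grb10, from 3.89 and 3.21 CPM to 0.287 and 0.203 CPM.

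**Figure D5:**
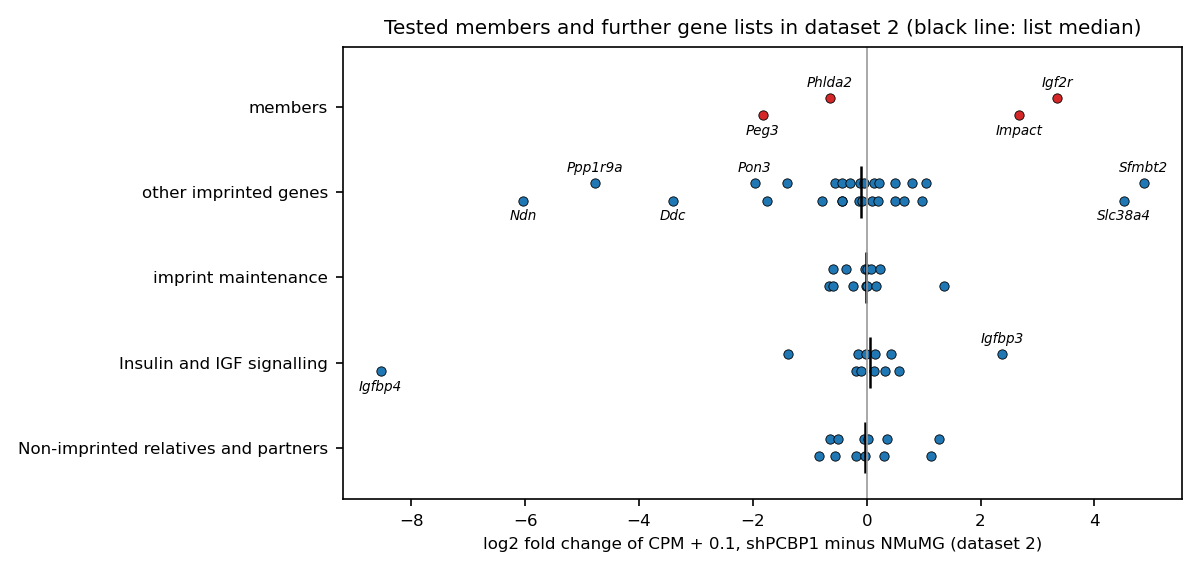
log2 fold change of CPM + 0.1 in shPCBP1 minus NMuMG of dataset 2 for the tested members and for 4 further gene lists, 1 point per gene, with a black line at the median of each of the 4 further lists. These 4 medians lie within 0.10 of 0, and fold changes of genes listed at 0 in a group, such as Ndn, Sfmbt2 and Slc38a4, depend on the added 0.1 CPM.

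In dataset 1, 30 of the 58 were tested. None passed the threshold in FAM3C KO, as against 0.309% of all genes, and 6 of 30 had an unadjusted p under 0.05, against 10.2% of all genes. In LIFR KO 4 of 30 were lower, against 5.55% of all genes called lower: Trappc9 by -0.97 (limma adjusted p = 0.0319), Sfmbt2 by -1.08 (0.0388), Tspan32 by -0.88 (0.0591) and Osbpl5 by -0.67 (0.0565). After GC correction these were -0.53, -1.08, -0.44 and -0.15, with adjusted p of 0.0964, 0.0877, 0.330 and 0.605. Before GC correction, the list's median in LIFR KO was -0.32, against -0.16 for all genes. After it, the median of all genes was 0.04, and the list's genes lay on both sides of 0, from -1.99 (Igf2) to 0.53 (Snrpn). The lower uncorrected median is therefore not read as a trait of the list. Between the knockouts, 3 of 30 were higher in FAM3C KO, against 6.83% of all genes called higher: Trappc9 (1.03, limma adjusted p = 0.0323), Cd81 (1.00, 0.0475) and Osbpl5 (0.64, 0.0657). After GC correction the differences were 0.63 (0.0722), 0.81 (0.116) and 0.16 (0.573). The largest differences that did not pass were those of Snrpn (3.60), Slc38a4 (-1.96), Zim1 (-1.90), Peg12 (-1.31) and Dio3 (-1.12) in FAM3C KO, and Igf2 (-2.48), Slc38a4 (-1.23) and Peg12 (-1.13) in LIFR KO.

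Snrpn, the paternally expressed gene for a spliceosomal protein, was either present or without reads in a line of dataset 1. It was 2.73 CPM in the shPCBP1 line without Cas9, on 43 reads, and had no read in CT clones 1 to 3. FAM3C KO clones 1 to 3 held 2.97, 3.82 and 3.24 CPM, LIFR KO clones 1 and 2 no read, LIFR KO clone 3 3.23 CPM and the double KO 3.10 CPM. In all, 6 lines had at least 43 reads and 5 had none, and its SD of log2 CPM over the 11 lines exceeded that of 99.7% of tested genes. Lines with and without Snrpn reads were found in both the shPCBP1 and the LIFR KO group. In dataset 2, Snrpn was under the filter, at 0.0886 and 0.113 CPM in NMuMG and 0.138 and 0.0199 CPM in shPCBP1.

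Genes that keep or set imprints were examined for a change that went with the members. In dataset 2, 13 of 16 were tested, and 4 were higher and 5 lower (limma adjusted p under 0.07, as for 80.1% of all genes), with a median of -0.01. Zfp57, which binds methylated imprinting control regions, was 70.5 and 67.5 CPM in NMuMG and 42.5 and 43.9 CPM in shPCBP1 (log2 fold change -0.67). The demethylases Tet2 and Tet3 both changed by -0.60, the maintenance methyltransferase Dnmt1 by -0.36 and the de novo methyltransferase Dnmt3b by 1.36, from 0.531 and 0.321 CPM to 1.15 and 1.31 CPM. In dataset 1 none of the 13 tested passed the limma threshold in FAM3C KO or LIFR KO (1 and 3 had an unadjusted p under 0.05, against 10.2 and 35.7% of all genes). Dnmt3a was higher in FAM3C KO than in LIFR KO by 0.69 (limma adjusted p = 0.0531), and by 0.42 (0.201) after GC correction. The largest values were 0.46 for Smchd1 in FAM3C KO (adjusted p = 0.376) and -0.61 for Dnmt1 in LIFR KO (adjusted p = 0.123).

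Igf2r and Grb10 act on insulin and IGF signalling. Of 12 tested genes of that pathway in dataset 2, 6 were higher and 5 lower (limma adjusted p under 0.07, as for 80.1% of all genes), with a median of 0.05. The binding protein gene Igfbp4 was 97.5 and 105 CPM in NMuMG and 0.287 and 0.0925 CPM in shPCBP1, whereas Igfbp3 was 11.2 and 12.0 CPM and 59.9 and 61.9 CPM. Irs1, the adaptor that couples insulin and IGF receptors to PI3 kinase, fell by 1.39 on the log2 scale, while Igf2bp3 rose by 0.57 and Akt1 by 0.43. Igf2 itself, the ligand that Igf2r clears, was 0.0178 and 0.0190 CPM in NMuMG and 0.881 and 1.03 CPM in shPCBP1, under the filter in dataset 2. In dataset 1, none of 11 tested pathway genes passed the threshold in FAM3C KO or LIFR KO (2 in each had an unadjusted p under 0.05, against 10.2 and 35.7% of all genes). The largest values were -1.42 for Irs1 in FAM3C KO (SE 0.417, limma adjusted p = 0.239) and -0.83 in LIFR KO (adjusted p = 0.173). Igfbp3 was higher in FAM3C KO than in LIFR KO by 1.13 (adjusted p = 0.0693), and by 0.84 (0.185) after GC correction.

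The last list held relatives and partners of the members that are not imprinted. In dataset 2, 12 were tested, and 3 were higher and 4 lower (limma adjusted p under 0.07, as for 80.1% of all genes). Phlda3, a relative of Phlda2 that restrains AKT, rose from 52.6 and 59.6 CPM to 133 and 137 CPM (log2 fold change 1.27), the opposite direction to Phlda2. Cdkn1a, a relative of Cdkn1c in function, rose by 1.13, and Eif2ak4, which encodes the kinase GCN2 that Impact restrains, fell by 0.83. Grb14 and Grb7, relatives of Grb10, fell by 0.64 and 0.55. In LIFR KO, Phlda3 was 82.1, 38 and 60.6 CPM against 120 to 143 CPM in shPCBP1 (log2 fold change -1.15, limma adjusted p = 0.0388, and -0.35, adjusted p = 0.360, after GC correction). It was the 1 of 13 tested genes that passed there, against 6.47% of all genes. In FAM3C KO none of 13 passed (1 had an unadjusted p under 0.05, against 10.2% of all genes), the largest values being -0.41 for Cdkn1a and -0.40 for Siah1a. Between the knockouts Phlda3 differed by 0.90 (limma adjusted p = 0.0583), and by 0.15 (0.703) after GC correction.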

How the data were processed

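RNA from 11 lines (dataset 1) and 4 libraries (dataset 2) was sequenced after ribosomal RNA depletion with a strand-specific kit. Per the labels and the study's methods, the authors aligned reads to GRCm38 (mm10) with Bowtie2 and analysed counts with DESeq2 in Partek Flow. The strand setting of the counting is not given in the sources used here. The deposited values are CPM per gene and library. The values of dataset 1 start at 1 added read and those of dataset 2 at 0.0001 CPM. Reads were recovered from these steps, but only 85.3 to 87.1% (dataset 1) and 90.1 to 90.8% (dataset 2) of low values were whole within 0.02 read, so no count test was run. The authors' group means and fold ratios of dataset 2, deposited beside the CPM, were not used.

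Values were analysed as log2(CPM + 0.1), which understates changes of low genes, for genes averaging 0.5 CPM or more, with limma 3.58.1 (R 4.3.3) and Benjamini-Hochberg adjustment over 12621 genes (dataset 1, 1 fit of 3 groups) and 11384 genes (dataset 2). The threshold was an adjusted p of 0.07, as in the study's methods. The 3 groups of dataset 1 shared 1 estimate of each gene's spread. FAM3C KO intervals and p-values therefore also carry the spread of the LIFR KO clones. The fits were tested on simulated data with known changes and independent normal noise, without a GC shift between libraries. In FAM3C KO against shPCBP1, 153 of 200 changed genes were found, with 8 false calls. In dataset 2, 190 of 200 were found, with 4 false calls. The fits of LIFR KO were not tested in this way. The double KO was not tested. Exact permutation tests used scipy 1.17.1, and figures matplotlib 3.10.9 (Python 3.11.15). Coordinates and exon lengths are from GENCODE M21 (GRCm38). The dataset 1 file's own start positions matched M21 for 302 of 13870 genes, so its coordinates were not used. Promoters are from RefSeq (GRCm38.p6).

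The members and lists were chosen with earlier results of these data known. Named genes are the 10 members, each listed gene past the threshold in dataset 1, up to 5 of the largest changes per list in each of the comparisons of dataset 2, FAM3C KO and LIFR KO, and the 5 genes most like Peg3. Zfp667, Zfp773, Zfp28, Agpat4 and Osbpl1a, neighbours of members, and the marker Pdgfra were named after their values were seen. Samples are separate lines in dataset 1; nothing says that the replicates of dataset 2 came from separate cultures, so their p-values measure only the spread between those libraries. Alternatives were other scalings, a pseudocount of 1, no filter or a filter of 2 CPM, a threshold of 0.05, each comparison fitted alone, a replicate block, GC correction (loess, span 0.3), single lines left out and LIFR KO clone 1 alone. Same-numbered lines did not deviate together (correlations -0.189 to 0.154 in dataset 1 and 0.051 in dataset 2).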

Additional observations from a re-analysis of the deposited data

Results flagged for a closer look

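Mest in CT clone 1, at 1.21 CPM, lay apart from the other 3 shPCBP1 lines (0.681 to 0.760 CPM): its gap to the next line was 0.852 of the group's range. A gap of that size is met by chance in about 1 in 20 groups, and 5 members were examined. CT clone 1 was also the most deeply sequenced line, with 56 Mest reads.

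The double KO, a single line outside the tested comparisons, held more Mest (1.83 CPM, on 38 reads) and more Impact (99.4 CPM) than any of the 4 shPCBP1 lines, whose highest levels were 1.21 and 98.0 CPM. After GC correction, Mest was 2.03 CPM in the double KO and 0.661 to 1.21 CPM in the shPCBP1 lines, whereas Impact was 82.9 CPM, within the 72.3 to 94.4 CPM of those lines. These differences have no replicate check.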

How the results depend on the processing

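No member passed the threshold in FAM3C KO under any alternative run. The number of members past it in LIFR KO was 1, and 0 with a mean of at least 2 CPM (3 members left), with the groups fitted alone, with GC correction, with CT clones as the only controls, with LIFR KO clone 1 alone and under the replicate block with or without GC correction, and 0 to 2 over single lines left out. Between the knockouts it was 0, 1 with LIFR KO clone 1 alone, and 0 to 2 over single lines left out. In dataset 2, the number past 1.5-fold was 4, 3 with a pseudocount of 1 CPM, 5 of 6 with no filter, and 3 to 4 over single libraries left out. The lines share only a number: under the replicate block, Phlda2 in LIFR KO was -1.42 (limma adjusted p = 0.150), and -0.92 (0.290) with GC correction, and 15 genes were called in FAM3C KO and 10 in LIFR KO. The block also dropped the line without Cas9, and without that line alone 27 and 25 genes were called, against 39 and 816 with it. The number of all genes called ranged from 3 to 1060 in FAM3C KO, from 0 to 7234 in LIFR KO and from 0 to 6673 between the knockouts, the highest of the last 2 without LIFR KO clone 1 and the first without LIFR KO clones 2 and 3, an alternative chosen after seeing the data. Rescaling by median ratios moved the LIFR KO split from 115 higher and 701 lower to 190 and 288. Directions turned for members that were not called. With LIFR KO clone 1 alone these were Igf2r (0.05) and Mest (-0.38) in LIFR KO and Igf2r (-0.24), Impact (0.30) and Mest (0.17) between the knockouts. With GC correction they were Igf2r (-0.05) and Impact (0.15) between the knockouts, and -0.05 and 0.14 with the block as well. Over single lines left out, Peg3 ranged from -0.76 to 0.60 and Mest from 0.00 to 0.49 in LIFR KO, and Igf2r from -0.05 to 0.40 and Impact from -0.26 to 0.13 between the knockouts. The cause was not tested. The planned comparisons of Peg10 with Sgce and of Cdkn1c with Phlda2 were not run, as 3 of these genes were not analysed here. Depth limits Mest, Grb10 and Phlda2, at 0 to 140 reads.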
